A study of Homo sapiens with 8 samples.

Results

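*NFATC1*, *ANO2*, *CDH5*, *TBX3* and *FOXL2*, with *TBX2* for comparison, are 6 genes best known from organ development and differentiated tissues outside the prostate. The first 5 were chosen by their measured RNA levels, which were higher in PNT2 cells with *ERF* KD + *CIC* KO than in WT cells, and *TBX2* was added as the close relative of *TBX3*. They are 6 of the 33791 genes for which counts could be summed. PNT2 is an immortalized line of human prostate epithelium, and RNA-seq covered 8 libraries in 4 groups with a replicate A and a replicate B each: parental cells (WT), cells whose genotype label is *ERF* KD, cells whose label is *CIC* KO, and cells labelled as a *CIC-ERF* codeletion, made with an *ERF* hairpin and a *CIC* guide and written here as *ERF* KD + *CIC* KO. Hairpin RNAs under puromycin selection targeted *ERF*, and Cas9 with guide RNAs under blasticidin selection cut *CIC*, in populations of the parental line that differ from WT in these vectors as well. The study describes alternative hairpins and alternative guides, and double lines that pair the same hairpin with either guide. Which of these lines each library came from, and what the letters A and B stand for, is not stated. The p-values therefore measure the spread between these libraries, which may be technical or between such lines.

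CIC is a repressor of the HMG-box family and ERF a repressor of the ETS family, which binds sites built around GGAA. NFATC1 is a transcription factor that calcineurin sends to the nucleus when calcium rises, and it is known for the heart valves and for osteoclasts. ANO2 is a calcium-activated chloride channel of the anoctamin family, known from olfactory neurons. CDH5 (VE-cadherin) is the cadherin of endothelial cell junctions, TBX3 and TBX2 are T-box repressors of limb, heart and mammary development, and FOXL2 is the forkhead factor of ovarian granulosa cells.

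Library totals ran from 19477473 to 25813157 estimated counts. *ERF* mRNA went against the labels of the single-loss groups. It stood at 55.8 and 55.9 CPM (counts scaled to library size, with TMM factors that even out library composition) in WT, at 81.2 and 77.8 in the libraries labelled *ERF* KD, at 18.8 and 11.7 in those labelled *CIC* KO, and at 11.6 and 10.4 in *ERF* KD + *CIC* KO. *CIC* mRNA, which a guide need not lower, was at 128 and 129 CPM in WT and 108.5 and 108.9 in labelled *ERF* KD. It was at 132 and 131 in labelled *CIC* KO and at 90.9 and 66.4 in *ERF* KD + *CIC* KO. The names of the deposited tables also give the single-loss groups the opposite way from the labels. *ETV4* and *ETV5*, known as genes that CIC represses, were high in labelled *ERF* KD and near WT in labelled *CIC* KO. *ETV4* stood at 17.4 and 23.5 CPM in WT, 65.5 and 51.0 in labelled *ERF* KD and 20.4 and 27.3 in labelled *CIC* KO, and *ETV5* at 21.8 and 28.1, 109 and 82.6, and 31.4 and 34.9. The labels were kept, and every direction given below for a single-loss group holds for libraries labelled that way, whose *ERF* mRNA did not match the label.

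In GENCODE release 29, on GRCh38, *NFATC1* lies at chr18:79395856-79529325 on the plus strand and *ANO2* at chr12:5531869-5946232 on the minus strand. *CDH5* lies at chr16:66366622-66404786 (plus), *TBX3* at chr12:114670254-114684164 (minus), *FOXL2* at chr3:138944224-138947140 (minus) and *TBX2* at chr17:61399896-61409466 (plus). All 6 are protein-coding genes. *TBX2* shares 28 exonic bases with an antisense gene, *AC005746.2*, and the other 5 share none with another gene.

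*NFATC1* was low in WT, near absent in the libraries labelled *ERF* KD and highest in *ERF* KD + *CIC* KO. Its level was 1.47 and 1.63 CPM in WT (A, then B), 0.0480 and 0.199 CPM in labelled *ERF* KD, 4.23 and 2.21 CPM in labelled *CIC* KO, and 12.8 and 7.84 CPM in *ERF* KD + *CIC* KO. No 2 groups overlapped. In labelled *ERF* KD these values rest on 1 and 4 counts, against 31 and 32 in WT. The 5 counts against 63 give a ratio of 0.0788, with an exact 95% interval of 0.0247 to 0.194 that covers counting error only. *NFATC1* thus fell by 3.60 on the log2 scale in labelled *ERF* KD against WT (SE 0.659, adjusted p = 0.0119, edgeR), but the call was lost without replicate A of labelled *ERF* KD (adjusted p = 0.0610). It was lost on TPM as well, where limma gave -0.66 on log2(TPM + 1) (adjusted p = 0.278) and -2.24 on log2(TPM + 0.1) (adjusted p = 0.0590). In labelled *CIC* KO against WT the log2 difference was 1.05 (SE 0.470, adjusted p = 0.9997), with each library above both WT libraries.

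*ANO2* followed the same order of groups. It was measured at 2.66 and 1.89 CPM in WT, 0.240 and 0.149 CPM in labelled *ERF* KD (5 and 3 counts), 3.81 and 2.69 CPM in labelled *CIC* KO, and 18.2 and 8.97 CPM in *ERF* KD + *CIC* KO. The lower *CIC* KO library lay just above the higher WT library, whereas the other groups were well apart. *ANO2* fell by 3.50 on the log2 scale in labelled *ERF* KD against WT (SE 0.554, adjusted p = 0.00616, edgeR), and the ratio of summed counts was 0.0854 (counting interval 0.0358 to 0.175). In labelled *CIC* KO against WT the log2 difference was 0.52 (SE 0.416, adjusted p = 0.9997), and its sign turned (-0.14) when counts were corrected for transcript length.

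*CDH5* had the widest spread between replicates of the 6 genes. It was at 10.3 and 5.15 CPM in WT, 14.0 and 2.68 CPM in labelled *ERF* KD, 34.4 and 7.75 CPM in labelled *CIC* KO, and 65.4 and 15.0 CPM in *ERF* KD + *CIC* KO. Replicate A exceeded replicate B in each group, by 1.99 times in WT, 5.21 times in labelled *ERF* KD, 4.44 times in labelled *CIC* KO and 4.36 times in *ERF* KD + *CIC* KO. The 2 single-loss groups therefore overlapped each other and WT, and the *ERF* KD + *CIC* KO libraries overlapped labelled *CIC* KO. Neither single-loss group passed the test against WT, with log2 differences of 0.11 in labelled *ERF* KD (SE 0.967, adjusted p = 0.962, edgeR) and 1.45 in labelled *CIC* KO (SE 0.959, adjusted p = 0.9997). Without the filter on low counts the latter did pass (adjusted p = 0.000161).

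Compared within a letter, *CDH5* was steadier for some pairs of groups than for others. *ERF* KD + *CIC* KO held 1.90 times (A) and 1.94 times (B) the *CDH5* level of labelled *CIC* KO, and 4.68 and 5.59 times that of labelled *ERF* KD. Against WT the within-letter ratio was 6.37 for A and 2.91 for B in *ERF* KD + *CIC* KO, 3.35 and 1.50 in labelled *CIC* KO, and 1.36 and 0.521 in labelled *ERF* KD. The last pair points in opposite directions.

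*TBX3* was the only one of the 6 genes whose libraries outside WT all stood above both WT libraries. Its level was 4.89 and 6.98 CPM in WT, 14.5 and 30.7 CPM in labelled *ERF* KD, 11.4 and 12.0 CPM in labelled *CIC* KO, and 25.2 and 20.2 CPM in *ERF* KD + *CIC* KO. The labelled *CIC* KO pair lay closest together, and the *ERF* KD + *CIC* KO values lay between those of the 2 labelled *ERF* KD libraries. *TBX3* rose by 1.93 on the log2 scale in labelled *ERF* KD against WT (SE 0.356, adjusted p = 0.0123, edgeR), but without replicate A of WT the adjusted p was 0.0928. In labelled *CIC* KO against WT the log2 difference was 0.98 (SE 0.353, unadjusted p = 0.0234 and adjusted p = 0.9997, edgeR), and without the filter on low counts it passed (adjusted p = 0.0366). Both tests used the WT libraries on which *TBX3* was chosen for being low. The same limit holds for tests of the other chosen genes against WT.

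*TBX2* showed no such pattern. It was at 2.66 and 3.57 CPM in WT, 3.79 and 5.71 CPM in labelled *ERF* KD, 2.84 and 4.81 CPM in labelled *CIC* KO, and 3.94 and 2.31 CPM in *ERF* KD + *CIC* KO. The 2 *ERF* KD + *CIC* KO libraries fell on either side of the WT pair. Since *TBX2* was not chosen on these levels it could be tested, and the *ERF* KD + *CIC* KO level differed from WT by 0.01 on the log2 scale (SE 0.420, adjusted p = 0.993, edgeR), with a ratio of summed counts of 1.05 (counting interval 0.814 to 1.34). Its log2 difference from WT was 0.61 in labelled *ERF* KD (SE 0.417, adjusted p = 0.421, edgeR), then 0.30 in labelled *CIC* KO (SE 0.418, adjusted p = 0.9997).

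*FOXL2* rests on few reads. It was at 0.332 and 0.306 CPM in WT (7 and 6 counts), 0.336 and 0.199 CPM in labelled *ERF* KD (7 and 4 counts), 1.02 and 0.818 CPM in labelled *CIC* KO (22 and 17 counts), and 1.65 and 1.97 CPM in *ERF* KD + *CIC* KO (39 and 35 counts). The labelled *CIC* KO libraries lay between the other groups without overlap, while labelled *ERF* KD overlapped WT. The log2 difference from WT was 1.51 in labelled *CIC* KO (SE 0.536, unadjusted p = 0.0219 and adjusted p = 0.9997, edgeR) and -0.25 in labelled *ERF* KD (SE 0.590, adjusted p = 0.840). *FOXL2* reached the filter on low counts (0.485 CPM) only in the *ERF* KD + *CIC* KO libraries and those labelled *CIC* KO, so those comparisons were open to it only because it was high there. In bulk RNA such as this, fewer expressing cells and less RNA per cell cannot be told apart, for any of the 6 genes.

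**Figure D1:**
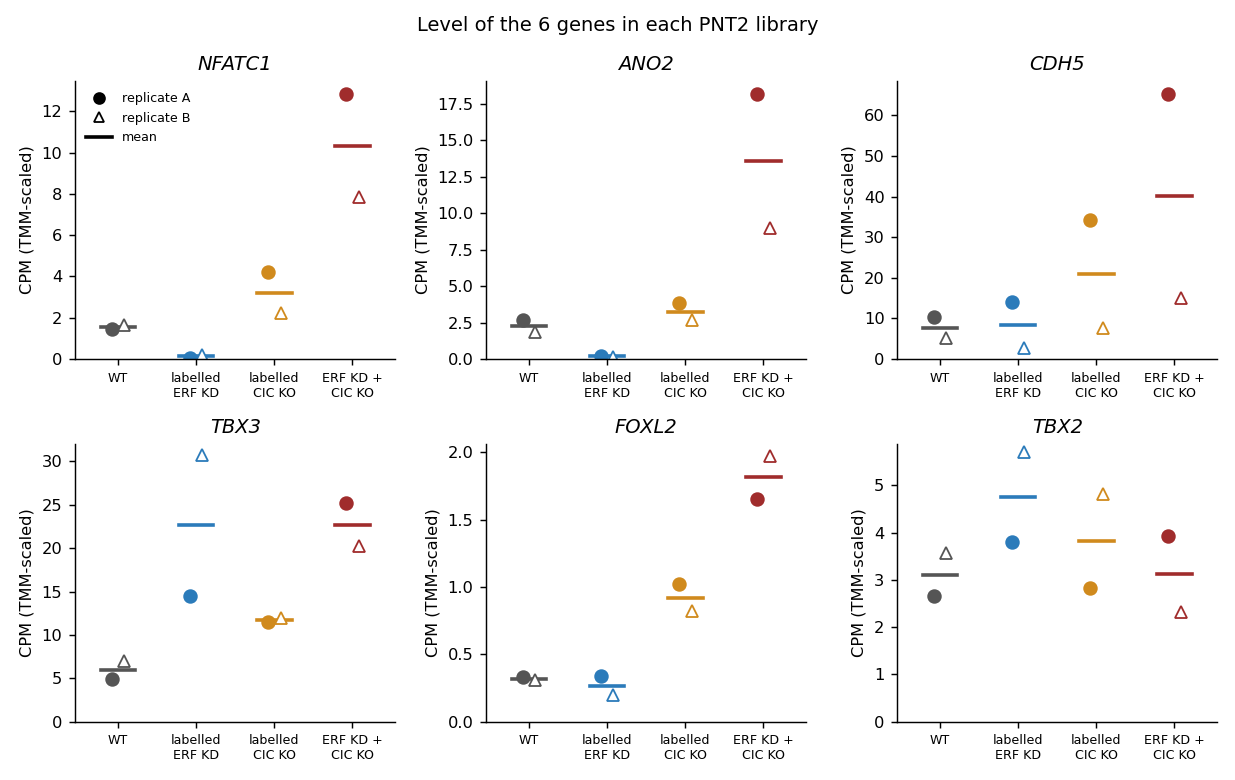
Level of each gene (CPM scaled by TMM, linear axes from 0) in the 8 libraries, with circles for replicate A, triangles for replicate B and a bar at the mean of 2. *NFATC1* and *ANO2* lie near 0 in labelled *ERF* KD, *TBX3* lies above WT in each of the other groups, *CDH5* splits by letter and *TBX2* overlaps between *ERF* KD + *CIC* KO and WT.

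The size of the rise in *ERF* KD + *CIC* KO over WT is a description, since these libraries chose the genes. The log2 difference was 2.73 for *NFATC1* (SE 0.477), 2.57 for *ANO2* (SE 0.421), 2.48 for *FOXL2* (SE 0.530), 2.38 for *CDH5* (SE 0.976) and 1.94 for *TBX3* (SE 0.356). That of *CDH5* was 0.95 without replicate A of *ERF* KD + *CIC* KO and 3.08 without its replicate B. The mean level in *ERF* KD + *CIC* KO was 10.3 ± 3.53 CPM for *NFATC1*, 13.6 ± 6.50 CPM for *ANO2*, 40.2 ± 35.6 CPM for *CDH5*, 22.7 ± 3.49 CPM for *TBX3* and 1.81 ± 0.228 CPM for *FOXL2* (SD, n = 2). In WT the means were 1.55 ± 0.113, 2.27 ± 0.547, 7.70 ± 3.61, 5.94 ± 1.48 and 0.319 ± 0.0188 CPM in the same order. For each of these 5 genes both *ERF* KD + *CIC* KO libraries lay above both WT libraries, as did those of 24.4% of the 14653 genes tested, and nothing is read from that count because the choice of genes fixed it. Per transcript length the order of levels in *ERF* KD + *CIC* KO was *CDH5* (17.0 TPM, a level corrected for transcript length), *ANO2* (11.8 TPM), *TBX3* (8.85 TPM), *NFATC1* (5.18 TPM), *TBX2* (1.21 TPM) and *FOXL2* (0.842 TPM), where the *ANO2* value leans on a transcript of only 640 bases.

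Which of the genes were also raised with a single loss depended on the group. In labelled *ERF* KD against WT 1 of the 6 genes (*TBX3*) was called higher and 2 (*NFATC1* and *ANO2*) were called lower, where 4.01% of all tested genes were called higher and 6.07% lower (edgeR, Benjamini-Hochberg adjusted p under 0.05). The WT libraries of this comparison also served in choosing the 5 genes for being low there. In labelled *CIC* KO against WT none of the 6 was called, and neither was any other gene (0% of 14653, edgeR). DESeq2 called 26 genes but none of the 6. An unadjusted p under 0.05 (edgeR) was found for 587 of the 14653 genes (4.01%), *TBX3* and *FOXL2* among them. That share is no more than the threshold alone would let through, so nothing is read from it for these genes. Without the filter on low counts *CDH5* and *TBX3* were called higher, among 123 genes. Of the 6 genes, 4 (*NFATC1*, *ANO2*, *TBX3* and *FOXL2*) had both labelled *CIC* KO libraries above both WT libraries, beside 16.1% of all genes tested, with the limit given above for *FOXL2*. Those same WT libraries were the low side of the choice.

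The comparison of labelled *ERF* KD with labelled *CIC* KO contrasts libraries on which the genes were not chosen, although the filter and the estimate of spread drew on all 8 libraries. *NFATC1* was lower in labelled *ERF* KD by a log2 difference of -4.65 (SE 0.639, adjusted p = 0.00318, edgeR) and *ANO2* by -4.02 (SE 0.547, adjusted p = 0.00311), each with both libraries of one group below both of the other. With limma on log2(TPM + 1) the *NFATC1* call was lost (-1.24, adjusted p = 0.0587). These 2 of the 6 genes were called lower and 0 were called higher, where 5.65% of all genes were called lower and 3.75% higher. *TBX3* was at 0.95 (SE 0.342, adjusted p = 0.136), *FOXL2*, which passed the filter only where it was high, at -1.76 (SE 0.546, adjusted p = 0.0905) and *TBX2* at 0.31 (SE 0.413, adjusted p = 0.727). *CDH5* was at -1.34 (SE 0.954, adjusted p = 0.470), and with the replicate letter as a block at -1.37 (SE 0.294, adjusted p = 0.0149), which passed the threshold. Without replicate A of labelled *ERF* KD, *TBX3* passed as well (log2 difference 1.40, adjusted p = 0.0213).

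The levels in *ERF* KD + *CIC* KO can be set beside those in each single-loss group, again as a description. Against labelled *CIC* KO the log2 difference was 2.06 for *ANO2* (SE 0.409), 1.68 for *NFATC1* (SE 0.450), 0.97 for *FOXL2* (SE 0.480), 0.96 for *TBX3* (SE 0.342) and 0.94 for *CDH5* (SE 0.921). That of *CDH5* turned to -0.49 without replicate A of *ERF* KD + *CIC* KO and was 2.38 without replicate A of labelled *CIC* KO. All of these but *CDH5*, 4 of the 5 chosen genes, had both libraries above both labelled *CIC* KO libraries, beside 17.2% of all genes. Against labelled *ERF* KD it was 6.33 for *NFATC1* (SE 0.636), 6.08 for *ANO2* (SE 0.549), 2.73 for *FOXL2* (SE 0.540), 2.27 for *CDH5* (SE 0.970) and 0.01 for *TBX3* (SE 0.336). Here too 4 of the 5 stood clear, beside 26.8% of all genes, although the lower *ERF* KD + *CIC* KO library of *CDH5* (15.0 CPM) was barely above the higher labelled *ERF* KD library (14.0 CPM). *TBX3* did not stand clear, since its *ERF* KD + *CIC* KO level was 1.74 times that of labelled *ERF* KD within letter A and 0.658 times within letter B. Nothing is read from either count of genes standing clear, because the genes were chosen for being high in these *ERF* KD + *CIC* KO libraries.

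**Figure D2:**
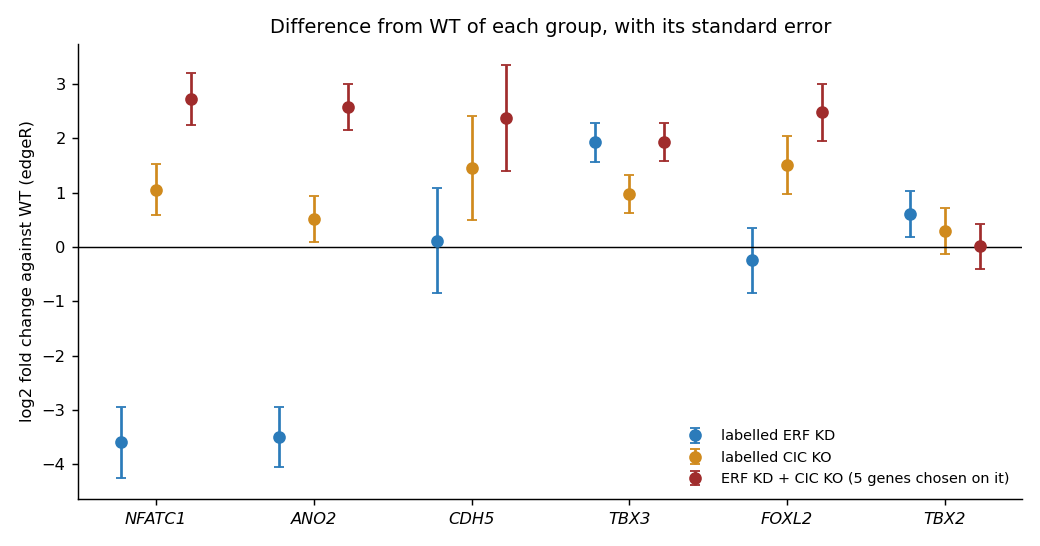
Log2 fold change against WT (edgeR, bars are 1 standard error) of the 6 genes in both single-loss groups and in *ERF* KD + *CIC* KO. Labelled *ERF* KD sits at -3.60 and -3.50 for *NFATC1* and *ANO2* and at 1.93 for *TBX3*, while the *ERF* KD + *CIC* KO values of the first 5 genes, 1.94 to 2.73, are the ones they were chosen by.

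Transcripts of *NFATC1* begin at an upstream or a downstream start, and the estimated counts moved between them. From the upstream start (3 transcripts, RefSeq start 79395930) came 9.10 and 0 counts in WT, 1 and 0 in labelled *ERF* KD, 14.8 and 0 in labelled *CIC* KO, and 207 and 38.3 in *ERF* KD + *CIC* KO. From the downstream start (6 transcripts, RefSeq start 79400299) came 20.5 and 31.1 counts in WT, 0 and 4 in labelled *ERF* KD, 74.9 and 46.0 in labelled *CIC* KO, and 96.3 and 101 in *ERF* KD + *CIC* KO. The upstream start thus had most of the counts in replicate A of *ERF* KD + *CIC* KO and the smaller part in replicate B. Most upstream counts there were given to *NFATC1-217* (199 and 32.3 counts), and most downstream ones to *NFATC1-218* (85.8 and 101 counts). kallisto divides reads between transcripts that share exons, so these splits are estimates without an error.

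*ANO2* also has a pair of starts, and in *ERF* KD + *CIC* KO the counts assigned to either were nearly all on the upstream one. *ANO2-201*, which begins at 5946232, had 375 and 126 estimated counts in *ERF* KD + *CIC* KO, against 44.6 and 7.37 in WT, 0.312 and 1.54 in labelled *ERF* KD and 23.9 and 47.4 in labelled *CIC* KO. *ANO2-211*, which begins downstream at 5945259, had 15.8 counts in WT replicate B and 37.2 in labelled *CIC* KO replicate A, and under 1 in each of the other 6 libraries. The short *ANO2-210* held 50.8 and 33.5 counts in *ERF* KD + *CIC* KO and at most 10.4 elsewhere. *ANO2-201* and *ANO2-211* are both 3717 bases long, and kallisto's division between them carries no error here.

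The other genes kept 1 leading transcript in each library. *CDH5-201* had 1299 and 230 of the estimated counts of *CDH5* in *ERF* KD + *CIC* KO and 136 and 78.4 in WT, followed by *CDH5-204* with 212 and 36.1 and with 45.1 and 16.6. *TBX3-202* led *TBX3-201* in each library, with 448 and 263 against 113 and 85.0 counts in *ERF* KD + *CIC* KO and with 218 and 473 against 71.7 and 125 in labelled *ERF* KD. *FOXL2-201* was the single *FOXL2* transcript in the files, and *TBX2-201* led for *TBX2* (73.1 and 34.6 counts in *ERF* KD + *CIC* KO).

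**Figure D3:**
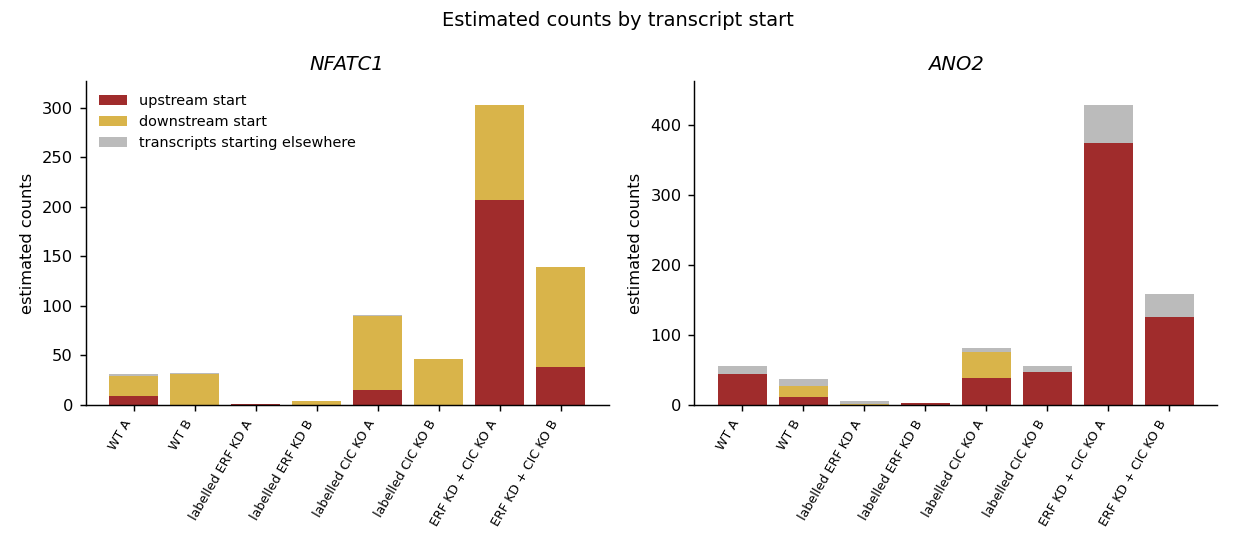
Estimated counts of *NFATC1* and *ANO2* in each library (bars stacked to the gene's total, not scaled for depth), divided by transcript start. The upstream start takes 207 of the *NFATC1* counts in replicate A of *ERF* KD + *CIC* KO and 38.3 in replicate B, and 375 and 126 of the *ANO2* counts.

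The sequences around these starts are shown because both starts of *NFATC1* and of *ANO2* carried counts. That of *FOXL2* is shown because the gene is on the study's list of targets shared by CIC and ERF. That list set CIC peaks from PNT2 beside public ERF peaks from VCaP prostate cancer cells, as the study could not pull down ERF in PNT2. Windows of 250 bases before to 50 bases after a RefSeq start (GRCh38.p14) were at hand for 3 of the 6 genes, 5 windows in all, and none was used for *CDH5*, *TBX3* and *TBX2*. Each is written 5′ to 3′ on the gene's strand, with capitals on every GGAA core of the ETS family (TTCC where the core is on the opposite strand). The order is the upstream start of *NFATC1* (chr18:79395680-79395979, plus strand), its downstream start (chr18:79400049-79400348, plus), the upstream start of *ANO2* (chr12:5946183-5946482, minus), its downstream start (chr12:5945210-5945509, minus) and *FOXL2* (chr3:138947088-138947387, minus).
*NFATC1* upstream: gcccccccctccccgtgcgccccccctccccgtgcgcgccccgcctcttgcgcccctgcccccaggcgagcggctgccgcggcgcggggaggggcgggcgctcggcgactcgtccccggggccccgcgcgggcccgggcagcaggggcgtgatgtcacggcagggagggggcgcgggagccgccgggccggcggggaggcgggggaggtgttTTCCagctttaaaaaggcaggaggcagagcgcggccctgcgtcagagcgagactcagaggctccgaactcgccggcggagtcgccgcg
*NFATC1* downstream: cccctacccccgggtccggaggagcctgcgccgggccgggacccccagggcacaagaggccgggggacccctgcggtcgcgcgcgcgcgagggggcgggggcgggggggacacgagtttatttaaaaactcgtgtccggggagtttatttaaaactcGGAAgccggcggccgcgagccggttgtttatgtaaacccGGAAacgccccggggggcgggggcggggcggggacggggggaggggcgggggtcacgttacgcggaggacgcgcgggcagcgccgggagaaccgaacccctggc
*ANO2* upstream: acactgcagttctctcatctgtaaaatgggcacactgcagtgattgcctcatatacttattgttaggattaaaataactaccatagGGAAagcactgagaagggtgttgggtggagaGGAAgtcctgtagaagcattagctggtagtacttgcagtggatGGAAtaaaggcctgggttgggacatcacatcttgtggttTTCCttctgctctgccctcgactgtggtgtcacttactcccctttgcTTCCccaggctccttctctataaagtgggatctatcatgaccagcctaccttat
*ANO2* downstream: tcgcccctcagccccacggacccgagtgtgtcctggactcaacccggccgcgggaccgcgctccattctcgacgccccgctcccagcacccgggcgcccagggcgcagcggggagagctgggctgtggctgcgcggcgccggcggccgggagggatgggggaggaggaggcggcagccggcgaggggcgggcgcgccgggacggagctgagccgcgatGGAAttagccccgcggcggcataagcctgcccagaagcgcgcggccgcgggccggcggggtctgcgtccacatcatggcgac
*FOXL2*: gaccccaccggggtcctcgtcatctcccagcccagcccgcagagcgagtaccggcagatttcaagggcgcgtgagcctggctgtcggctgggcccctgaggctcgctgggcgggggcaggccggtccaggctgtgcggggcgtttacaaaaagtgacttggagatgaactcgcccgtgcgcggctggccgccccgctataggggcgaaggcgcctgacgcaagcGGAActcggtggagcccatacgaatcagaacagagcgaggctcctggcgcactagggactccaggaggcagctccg

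The upstream *ANO2* window stood apart from the other 4 in base composition. It was 46.3% G or C with 1 CpG, whereas the downstream *ANO2* window was 77.3% G or C with 43 CpG, the *NFATC1* windows were 79.7% (upstream, 43 CpG) and 73.3% (downstream, 41 CpG), and that of *FOXL2* was 68.0% (28 CpG). Over all 35116 windows the medians were 58.7% and 14 CpG. GGAA was found 5 times in the upstream *ANO2* window and 1 to 2 times in the others, with a median of 3 over all windows, 95.5% of which hold it on one strand or the other. The core nearest the *FOXL2* start began 26 bases before it (position -26). CIC's site, searched as TGAATGAA, TGAATAAA, TCAATGAA, TCAATAAA and TGAATGGA on both strands, was in none of the 5 windows and in 5.42% of all windows, which says only that these letters are not in these 300 bases.

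Few relatives and partners of the 6 genes passed a test. Of 15 other genes of NFAT and calcineurin signalling 14 were tested, and in labelled *ERF* KD against WT 0 were called by edgeR, with 5 at an unadjusted p under 0.05, 1 called by DESeq2 and 3 with the replicate block. *PPP3CA*, the calcineurin catalytic subunit alpha, was at 56.6 CPM in *ERF* KD + *CIC* KO against 110 in WT (log2 difference -0.95, SE 0.142, adjusted p = 0.0593, edgeR). It was called lower there with the block (adjusted p = 0.0154) and by DESeq2 (adjusted p = 1.12e-05). Its level was 86.4 CPM in labelled *ERF* KD and 53.2 CPM in labelled *CIC* KO, both below WT. In labelled *CIC* KO against WT the log2 difference was -1.05 (SE 0.142, adjusted p = 0.333, edgeR, and 4.58e-06 by DESeq2). Labelled *ERF* KD stood above labelled *CIC* KO by 0.70 on the log2 scale (SE 0.142, adjusted p = 0.0184, edgeR).

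Of 9 other anoctamins 6 were tested, and 2 fell in labelled *ERF* KD against WT. *ANO1*, like *ANO2* a calcium-activated chloride channel, was at 4.57 against 21.7 CPM (log2 difference -2.25, SE 0.499, adjusted p = 0.0263, edgeR). *ANO9* was at 6.47 against 48.0 CPM (log2 difference -2.89, SE 0.258, adjusted p = 0.000383). Both also fell against labelled *CIC* KO. In *ERF* KD + *CIC* KO, where *ANO2* was highest, *ANO1* was at 18.8 CPM and *ANO9* at 44.2 CPM, with 0 of the 6 called against WT by edgeR or DESeq2 and 0 at an unadjusted p under 0.05.

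Of the 16 T-box genes besides *TBX3* only *TBX1*, *TBX2*, *TBX6*, *TBX19* and *MGA* passed the filter, and 0 of these 5 were called in any of the 4 tested comparisons by edgeR or DESeq2, nor did any have an unadjusted p under 0.05. Among 6 genes described as repressed by TBX2 or TBX3, *CDH1* (E-cadherin) and *CDKN1A* (the cell-cycle inhibitor p21) fell in labelled *ERF* KD against WT, where *TBX3* rose. *CDH1* was at 17.6 against 373 CPM (log2 difference -4.41, SE 0.148, adjusted p = 1.27e-05, edgeR) and *CDKN1A* at 37.1 against 142 CPM (-1.93, SE 0.406, adjusted p = 0.0210). *CDKN2A*, a cell-cycle inhibitor of the same list, went the other way at 164 against 105 CPM (0.64, SE 0.179, adjusted p = 0.0606, edgeR), and was called higher by DESeq2 (adjusted p = 0.0128) and with the block (adjusted p = 0.0191). In *ERF* KD + *CIC* KO the mean *TBX3* level was close to that of labelled *ERF* KD. There 0 of the 6 were called against WT by edgeR, with 2 at an unadjusted p under 0.05 and 1 (*CDH1*) called by DESeq2. *CDH1* was at 266 against 373 CPM (log2 difference -0.49, SE 0.128, adjusted p = 0.178, edgeR, and 0.0220 by DESeq2). *CDKN1A* was there at 72.1 CPM (log2 difference -0.98, SE 0.394, adjusted p = 0.345, edgeR), and fell with the replicate block (adjusted p = 0.0276).

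Of 26 other forkhead genes 18 were tested. None was called in labelled *ERF* KD against WT by edgeR (4 at an unadjusted p under 0.05, 1 by DESeq2, 3 with the block), and none in *ERF* KD + *CIC* KO against WT (2 at an unadjusted p under 0.05, 0 by DESeq2). *FOXM1*, a factor of dividing cells, was higher in labelled *ERF* KD than in labelled *CIC* KO (502 against 343 CPM, log2 difference 0.55, SE 0.140, adjusted p = 0.0459). Of 8 partners of VE-cadherin, *JUP* (plakoglobin) fell in labelled *ERF* KD against WT (43.3 against 181 CPM, log2 difference -2.06, SE 0.239, adjusted p = 0.00140, edgeR). In that comparison 3 were lower at an unadjusted p under 0.05, 2 by DESeq2 and 2 with the block. *CTNND1* (p120-catenin) was at 252 against 405 CPM (-0.69, SE 0.207, adjusted p = 0.0770, edgeR, 0.0121 by DESeq2 and 0.00614 with the block). *VCL* (vinculin) was higher in labelled *ERF* KD than in labelled *CIC* KO (0.66, SE 0.126, adjusted p = 0.0143, edgeR). None of the 8 was called in *ERF* KD + *CIC* KO against WT by edgeR, with 3 at an unadjusted p under 0.05 and 1, *CTNNA1* (alpha-catenin), called by DESeq2 and with the block (0.68, SE 0.130, adjusted p = 0.0962, and 0.0220 with the block).

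Against WT in labelled *CIC* KO, 0 genes of these 6 lists, the chosen genes left out, were called by edgeR, 3 had an unadjusted p under 0.05 and DESeq2 called 1. In *ERF* KD + *CIC* KO against WT 10 of all genes tested were called (0.0682%), with 1950 at an unadjusted p under 0.05, 365 with the replicate block and 439 by DESeq2. Median log2 differences of the 6 lists, again without the chosen genes, ran from -0.80 to 0.10 in labelled *ERF* KD against WT and from -0.22 to 0.01 in *ERF* KD + *CIC* KO against WT, beside 0.01 and 0.00 over all genes tested.

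**Figure D4:**
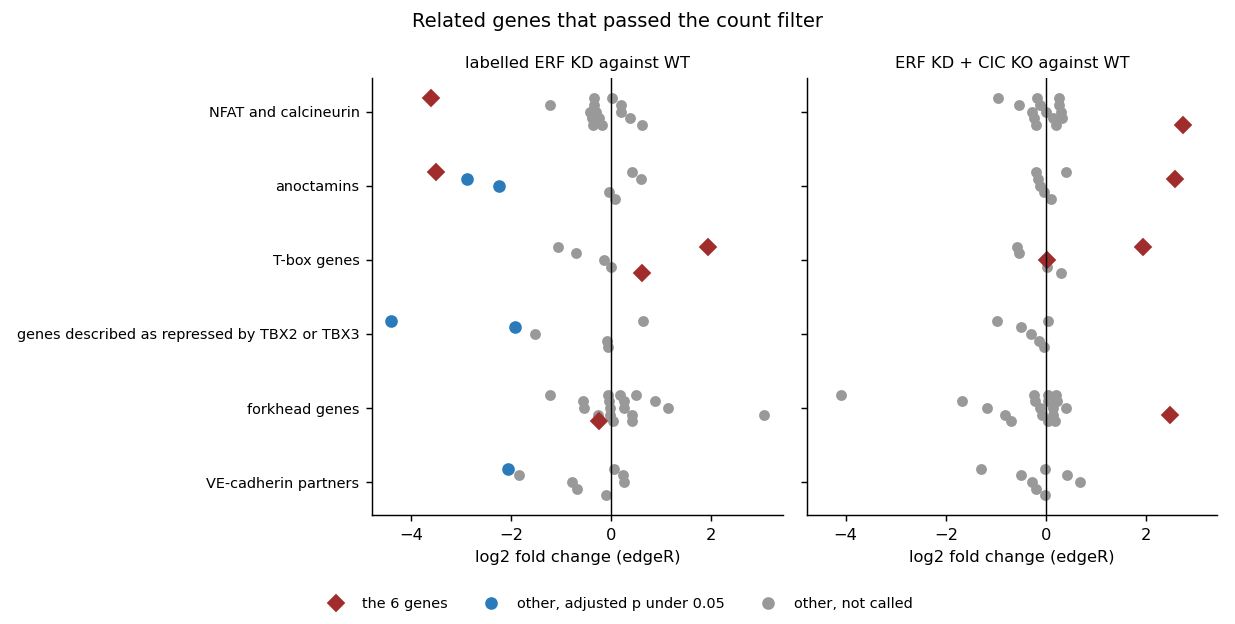
Log2 fold change (edgeR) of each tested gene of the 6 lists in labelled *ERF* KD and in *ERF* KD + *CIC* KO, both against WT. Diamonds mark those of the 6 genes that are on a list, which leaves out *CDH5*, and blue points mark others with an adjusted p under 0.05. The blue points, *ANO1*, *ANO9*, *CDH1*, *CDKN1A* and *JUP*, all lie left of 0 in labelled *ERF* KD, and there is none in *ERF* KD + *CIC* KO.

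*CDH5* is a marker of endothelial cells, and other markers of these cells were read beside it. The summed level of 15 endothelial markers was 36.9 to 43.8 CPM in WT, 24.3 to 30.2 in labelled *ERF* KD, 33.2 to 35.4 in labelled *CIC* KO and 35.6 to 36.8 in *ERF* KD + *CIC* KO, most of it *EGFL7*. *PECAM1* had 17 counts in each *ERF* KD + *CIC* KO library against 35 and 48 in WT, *ESAM* 61 and 56 against 52 and 45, and *KDR* 36 and 11 against 20 and 30. *CD34* had 3 and 2 counts there against 21 and 23 in WT, *ERG* 1 and 1 against 6 and 10, and *ROBO4* 116 and 97 against 77 and 101. *PLVAP* had at most 1 count in any of the 8 libraries. Of the 9 endothelial markers tested, 1 was called lower in labelled *ERF* KD against WT and 0 in *ERF* KD + *CIC* KO (edgeR, 2 at an unadjusted p under 0.05, 0 by DESeq2).

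Granulosa markers, the cells *FOXL2* is known from, summed to 17.0 to 22.4 CPM in WT, 34.3 to 35.0 in labelled *ERF* KD, 19.4 to 21.6 in labelled *CIC* KO and 24.3 to 29.5 in *ERF* KD + *CIC* KO. The sum lay above WT in *ERF* KD + *CIC* KO, where *FOXL2* was highest, and further above it in labelled *ERF* KD, where *FOXL2* overlapped WT. In the latter *FST* was at 28.1 against 12.1 CPM in WT (log2 difference 1.22, SE 0.354, adjusted p = 0.0681, edgeR) and was called by DESeq2 (adjusted p = 0.00895) and with the block (adjusted p = 0.00447). Most counts of the list were those of *FST*, *INHA* and *AMH*. *INHA* was at 185 and 131 counts in *ERF* KD + *CIC* KO against 114 and 77 in WT, and *AMH* at 89 and 81 against 55 and 43. In labelled *ERF* KD *INHA* was at 89 and 49 counts, below WT in replicate A and in replicate B, and *AMH* at 64 and 56. The defining *FSHR* and *CYP19A1* were at 0 in all 8 libraries, *NR5A1* never exceeded 2 counts, and 0 of the 4 tested of 9 were called against WT in *ERF* KD + *CIC* KO (edgeR, 0 at an unadjusted p under 0.05, 0 by DESeq2).

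Prostate epithelial markers summed to 3811 to 4655 CPM in WT, 1662 to 2126 in labelled *ERF* KD, 4066 to 5229 in labelled *CIC* KO and 3951 to 5050 in *ERF* KD + *CIC* KO. Their sum was below WT in labelled *ERF* KD, where *NFATC1* and *ANO2* also fell and *TBX3* rose. There 6 of the 9 tested were called lower against WT, and *CDH1* is among them. In *ERF* KD + *CIC* KO the sum overlapped WT, although mean *TBX3* was at 22.7 CPM against 22.6 CPM in labelled *ERF* KD. The luminal marker *KLK3* was at 0 in all 8 libraries. The sum of 8 fibroblast markers was 31.4 to 49.4 CPM in WT, 42.5 to 115 in labelled *ERF* KD, 23.2 to 46.3 in labelled *CIC* KO and 42.8 to 65.4 in *ERF* KD + *CIC* KO, with *LUM* at 0 in all 8 libraries. That of 5 leukocyte markers was 12.9 to 16.4, 2.43 to 10.7, 14.0 to 17.0 and 16.2 to 23.7 CPM in the same order. In labelled *ERF* KD against WT 1 fibroblast marker (*COL3A1*) was called higher and 1 leukocyte marker (*CSF1R*) lower. The part of any such shift in the results for the 6 genes was not tested.

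Of the 12 nearest protein-coding genes, 1 on each side, 8 were tested between *ERF* KD + *CIC* KO and WT, with adjusted p from 0.286 to 0.998 (edgeR). *FOXL2NB* begins 0.094 kb from *FOXL2* and was at 0.741 CPM against 0.808 in WT (log2 difference -0.11, SE 0.535, adjusted p = 0.949, edgeR). *VWF*, 2.64 kb from *ANO2*, was at 0.614 against 0.535 CPM, and *ATP9B*, 17.6 kb from *NFATC1*, at 9.28 against 9.27 CPM. *BEAN1*, 22.5 kb from *CDH5*, was at 3.57 against 2.64 CPM (log2 difference 0.45, SE 0.787, adjusted p = 0.840, edgeR). Its counts were higher in replicate A than in replicate B of each group, as for *CDH5*: 66 and 42 in WT, 151 and 45 in labelled *ERF* KD, 103 and 25 in labelled *CIC* KO, and 126 and 32 in *ERF* KD + *CIC* KO.

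Among 13831 other tested protein-coding genes, the pattern over the 8 libraries most like that of *NFATC1* (Pearson correlation of log2 CPM) was that of *TENT5C* (0.989), then *CARD10* (0.988) and *CNNM4* (0.985). Most like *ANO2* were *CNNM4* (0.987), *SASS6* (0.986) and *INHBB* (0.986), so *CNNM4* was near both. *CDH5* was matched best by *MIER1* (0.965), *TBX3* by *METTL2A* (0.965), *FOXL2* by *MIS18A* (0.980) and *TBX2* by *IL6ST* (0.967). These are descriptions over 8 libraries that share 4 groups and 2 letters.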

How the data were processed

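RNA-seq libraries of PNT2 cells were analysed from the deposited kallisto tables. Per the file headers the authors deposited, for each library, the estimated counts per transcript, not normalized, and TPM, which is corrected for transcript length and scaled to a common total. The study's methods name RSEM and log2-normalized values instead, and the submitters' processing notes name the build hg19. The kallisto version, annotation and strandedness are not given in the sources used here. Without strand, *TBX2* reads over its antisense partner cannot be told apart from it.

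Each file lists 180253 transcripts, and 153245 (85.0%) were matched by identifier to GENCODE release 29. Their sums per gene, rounded to whole counts, gave 33791 genes. These genes held 93.2% to 93.3% of a library's counts, and other rows stayed out of library sizes and tests. At the lowest depth 3 counts are 0.165 CPM. All 6 genes passed the filter on low counts (filterByExpr, 14653 genes kept), *FOXL2* in 4 libraries, *NFATC1* and *ANO2* in 6, the others in 8.

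After TMM scaling, edgeR 4.0.16 was used (glmQLFit, glmQLFTest, R 4.3.3) in a single fit of the 4 groups, with Benjamini-Hochberg adjustment over all tested genes and a threshold of 0.05. The 6 genes, the lists of related genes and the markers were chosen with earlier results of these data known. Of the 6 genes, *NFATC1*, *ANO2*, *CDH5*, *TBX3* and *FOXL2* were chosen by their levels in *ERF* KD + *CIC* KO, so no p is given for them there. From each list at most 4 genes were named, those called with the largest fold. Picked after their values were seen were *PPP3CA*, *CDH1*, *CDKN1A* and *CTNNA1* in *ERF* KD + *CIC* KO and genes of the marker lists. So were *PPP3CA* in labelled *CIC* KO, and *CDKN2A* and *CTNND1* in labelled *ERF* KD. Neighbours were the nearest gene on each side, and similar genes were the 3 highest by correlation. Intervals of count ratios are exact binomial and cover counting error only. An exact permutation test of 2 libraries against 2 was not used, since it cannot reach the threshold.

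Alternatives were DESeq2 1.42.0, its size-factor method in edgeR, no filter, length-scaled counts, a block for the replicate letter, limma 3.58.1 on log2(TPM + 1) and log2(TPM + 0.1), only the groups compared, and each library left out. Replicates of a group differed by more than sampling noise (a chi-square of 21.7 to 43.4 per degree of freedom), with a rank correlation of 0.984 to 0.990. The difference between A and B correlated across genes between groups by 0.136 to 0.335 in all 6 pairings of groups, so that the letter was also fitted as a block, as an alternative. The p-values and standard errors are from the fit without the block unless it is named. The fit was also tested on simulated data.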

Additional observations from a re-analysis of the deposited data

Results flagged for a closer look

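The effect against WT differed between the 2 single-loss groups for *NFATC1* and *ANO2*, by a test of the difference itself. The log2 difference between labelled *ERF* KD and labelled *CIC* KO was -4.65 for *NFATC1* (adjusted p = 0.00318, edgeR) and -4.02 for *ANO2* (adjusted p = 0.00311). Both genes lay below WT in the 2 labelled *ERF* KD libraries. On CPM both lay above WT in the 2 labelled *CIC* KO libraries, *ANO2* by as little as 2.69 against 2.66. By TPM *ANO2* was at 2.64 and 2.28 there against 3.06 and 2.53 in WT, so its position against WT depends on the correction for length. *ERF* mRNA was low in the latter libraries and high in the former, against the labels, and the direction therefore hangs on libraries whose labels are in doubt. The adjusted p for *NFATC1* was 0.00401 to 0.0204 and for *ANO2* 0.00328 to 0.0252 when each library was left out in turn. With limma on log2(TPM + 1) the adjusted p was 0.0587 for *NFATC1*, which is then not called.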

How the results depend on the processing

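Without the filter on low counts 2577 genes were called in labelled *ERF* KD against WT (1477 with it), 123 in labelled *CIC* KO against WT (0), 2367 between the single-loss groups (1377) and 768 in *ERF* KD + *CIC* KO against WT (10). The same setting called 2 of the 6 genes higher in labelled *CIC* KO against WT (*CDH5*, adjusted p = 0.000161, and *TBX3*, 0.0366) and 1, *TBX3*, higher (with *CDH5* also lower) between the single-loss groups. Nothing is read from the calls against WT, since both genes were chosen for being low in those WT libraries. For *CDH5* the lower labelled *CIC* KO library (7.75 CPM) also lay below the higher WT library (10.3 CPM), and with the filter its adjusted p was 0.9997 (edgeR). With the replicate letter as a block the counts were 2671, 1, 2424 and 365 in that order, and of the 6 genes it changed the call of *CDH5* between the single-loss groups alone. DESeq2 called 26 genes in labelled *CIC* KO against WT, and 439 for *ERF* KD + *CIC* KO, a fit of only the groups compared called 829 between the single-loss groups, and limma on log2(TPM + 1) called 1 in *ERF* KD + *CIC* KO. Both limma scales called 1 of the 6 genes lower in labelled *ERF* KD against WT in place of 2 (*NFATC1* at -0.66 and -2.24), and log2(TPM + 1) called 1 between the single-loss groups (*NFATC1* lost).

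Leaving out 1 library gave 620 to 1477 genes called in labelled *ERF* KD against WT (of the 6 genes 0 to 1 higher and 1 to 2 lower), 0 to 1 in labelled *CIC* KO against WT, 729 to 1206 between the single-loss groups (of the 6, 0 to 1 higher) and 0 to 8 in *ERF* KD + *CIC* KO against WT. Uncalled differences changed sign. *CDH5* in labelled *ERF* KD against WT was at -0.18 with the block, -0.21 with length-scaled counts, -0.33 on log2(TPM + 1), -0.50 on log2(TPM + 0.1) and -1.52 to 0.86 with a library left out. *ANO2* in labelled *CIC* KO against WT was at -0.14 with length-scaled counts, -0.13 on log2(TPM + 1) and -0.17 on log2(TPM + 0.1). *TBX2* in *ERF* KD + *CIC* KO against WT was at -0.00089 on log2(TPM + 1), -0.026 on log2(TPM + 0.1) and -0.43 to 0.34 with a library left out. With a library left out *FOXL2* ran from -0.67 to 0.075 in labelled *ERF* KD against WT, *TBX2* from -0.14 to 0.63 in labelled *CIC* KO against WT, and between the single-loss groups *TBX2* ran from -0.023 to 0.75 and *CDH5* from -2.97 to 0.10. The cause was not tested. Few counts limit *FOXL2*, and *NFATC1* and *ANO2* in labelled *ERF* KD.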

Other observations

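Other genes on the marker lists were higher in replicate A than in replicate B of each group, as *CDH5* was, and were picked out after their values were seen. *PDGFRB*, a receptor of mural cells and fibroblasts, had 218 and 80 counts in WT, 758 and 139 in labelled *ERF* KD, 109 and 41 in labelled *CIC* KO, and 313 and 112 in *ERF* KD + *CIC* KO. *CD14*, a co-receptor for bacterial lipopolysaccharide, had 104 and 61, 169 and 10, 141 and 49, and 232 and 32 counts in the same order. *KRT5*, the basal keratin, ran the other way, with 2937 and 4579, 313 and 386, 3028 and 7131, and 2143 and 4546 counts.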
